A study of Arabidopsis thaliana with 4 samples.

Results

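EXPA8, EXLA2 and EXO are 3 genes of Arabidopsis thaliana with names from wall loosening and cell growth. They were chosen by their RefSeq symbols among probe sets that represent 1 gene, with their light differences on these same arrays already known, and each has 1 probe set. They are 3 of 13286 genes with a probe set of that kind. All 3 passed the filter on low signals, which required the highest of the 4 arrays to reach the median of all signals, 248.6.

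Plant cells enlarge by letting the wall yield to turgor. Expansins are secreted proteins that loosen the wall without cutting its polymers. Alpha-expansins (EXPA) and beta-expansins (EXPB) have this activity, whereas expansin-like proteins A and B (EXLA, EXLB) resemble them in sequence and have no established loosening activity. EXO (EXORDIUM) encodes an extracellular protein that promotes leaf growth and is known as a gene raised by brassinosteroid, the steroid hormone of cell expansion. EXPA8 encodes an alpha-expansin and EXLA2 an expansin-like A protein.

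The study hybridised biotin-labelled cRNA from young seedlings to 4 Affymetrix arrays and asked which genes depend on the transcription factor gene ERF6 under oxidative stress and high light. The 4 groups were Col-0 wild type untreated, Col-0 wild type given 2000 µmol m-2 s-1 of light for 2 h, erf6-1 mutant untreated, and erf6-1 mutant given the same light. All plants were 3 weeks old and erf6-1 is in the Col-0 background. The sources used here do not give the kind of mutation in erf6-1, the growth conditions or the number of plants per array. A description field on all 4 samples speaks of embryos; it conflicts with the seedling labels and was set aside. Each group had 1 array. No difference below could therefore be set against a spread between replicates, no p-value or standard error exists, and precision is limited by having 4 arrays.

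The deposited values are linear MAS5 signals for 22746 probe sets. Median signals were 279 and 321 in the untreated wild type and erf6-1 and 208 and 207 in the same genotypes after light, while the 2% trimmed means lay between 493.0 and 494.8. ERF6 itself was not analysed here, so the genotype labels have no check from the mutated gene. Of 25 leaf marker genes 5 had a named probe set, and all were above the floor of 100 on every array; their summed signal was 219957.5 and 97906.9 in the wild type without and with light, and 146516.2 and 107663.6 in erf6-1. The 3 root markers with a probe set of 11 (PYK10, EXPA7 and EXPA18) were also above the floor throughout, with sums of 29569.8, 16616.2, 22632.0 and 18558.7 in that order. Both sums were lower in both light arrays, in the same direction as EXPA8 and EXO, and the part of either in their differences was not tested. The root sum was nearly all PYK10, and among the leaf genes LHCB4.1 was higher after light in erf6-1, at 12610.0 and 15556.4. None of the 16 seed and embryo markers or the 7 flower and pollen markers had a named probe set.

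EXPA8 had a signal of 2092.3 in the untreated wild type and 260.6 in the wild type after light. In erf6-1 the signals were 1050.5 untreated and 132.6 after light. Both light arrays lay below both untreated arrays, and within each light condition erf6-1 lay below the wild type. After light, 12.5% of the untreated signal remained in the wild type and 12.6% in erf6-1, so the signal was 8.03-fold and 7.92-fold lower.

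EXO had a signal of 1903.7 in the untreated wild type and 1718.3 in untreated erf6-1. After light the signals were 355.8 in the wild type and 353.8 in erf6-1. The arrays fell into a high untreated pair and a low light pair, with the genotypes close together in each. The share that remained after light was 18.7% in the wild type and 20.6% in erf6-1, which is 5.35-fold and 4.86-fold lower.

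EXLA2 went the other way. Its signal was 433.3 in the wild type after light, 103.1 in erf6-1 after light, 36.9 in untreated erf6-1 and 25.2 in the untreated wild type. Only the light array of the wild type was clearly above the floor of 100, below which signals were not ordered; that of erf6-1 stood just above it, and both untreated arrays stood below it. The cell expansion label therefore covers 2 genes that were lower after light in both genotypes and 1 that was higher after light in the wild type.

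**Figure D1:**
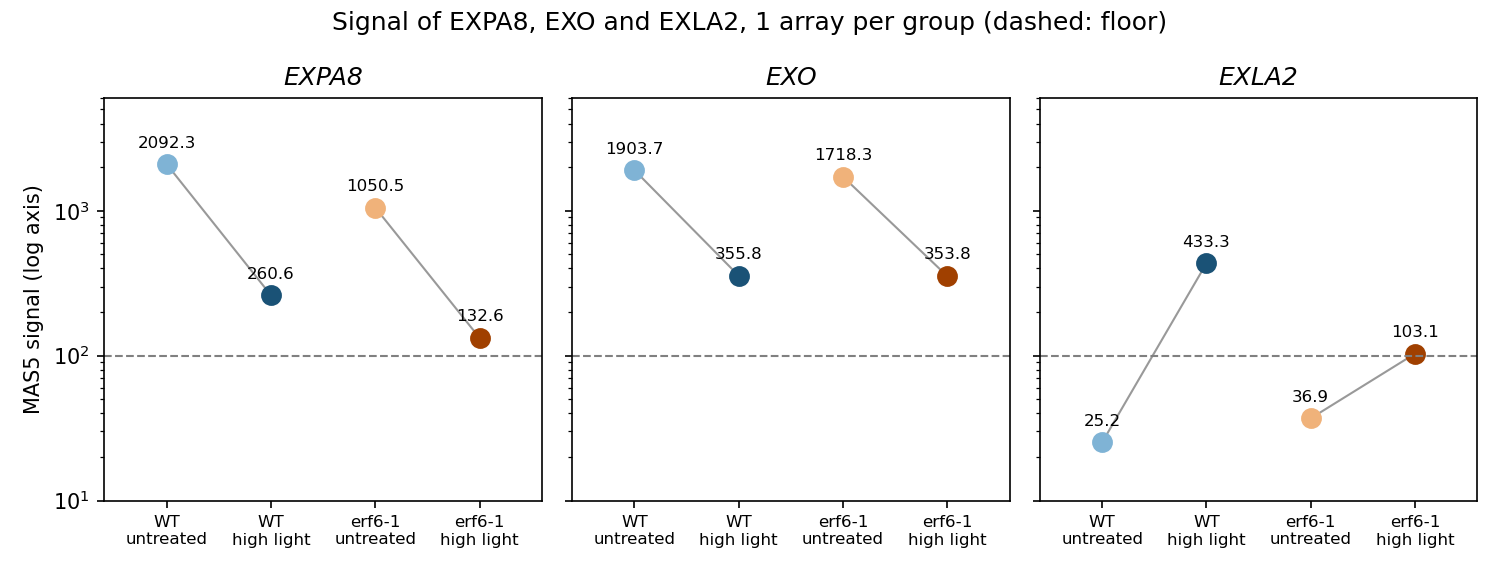
MAS5 signal (log axis) of EXPA8, EXO and EXLA2 on each of the 4 arrays, 1 point per array, with lines joining the untreated and light arrays of a genotype and a dashed line at the floor of 100. EXPA8 and EXO run downwards in both genotypes, whereas EXLA2 reaches 433.3 in the wild type after light and 103.1 in erf6-1.

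The position of each signal within its own array gives a second view of these levels. EXPA8 stood at percentile 94.3 of all signals in the untreated wild type and at 87.2 in untreated erf6-1. After light it stood at 56.4 and 37.9. EXO went from percentile 93.6 to 65.3 in the wild type and from 93.7 to 64.9 in erf6-1. EXLA2 was among the dimmest probe sets without treatment, at percentiles 5.8 and 7.5, and reached 70.4 in the wild type after light and 32.7 in erf6-1. These percentiles place a probe set among others on one array and do not compare transcript levels between genes.

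The first comparison set the light array of the wild type against its untreated array. The log2 difference was -3.01 for EXPA8 and -2.42 for EXO. For EXLA2 it was at least 2.12, or at least 4.33-fold, higher with light, since the untreated signal was below the floor. Thus 2 of 3 genes were at least 2-fold lower and 1 was at least 2-fold higher, the size taken here as a call. Over all 17173 probe sets past the filter, 23.9% were called lower and 14.3% higher, and their median difference was -0.13. Differences in this comparison were known when the genes were chosen, so nothing is read from the contrast with these shares. EXPA8 was the 45th and EXO the 296th lowest of the 17173. EXLA2 has no fixed rank, since its value is a bound. Both lower genes also passed 4-fold, as did 5.04% of probe sets past the filter. EXO was the only one of the 3 that counted as bright, with a mean log2 signal at or above that of the 75th percentile of all signals, 588.1, and 8.34% of the 4964 bright probe sets were called lower.

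The second comparison did the same in erf6-1. EXPA8 had a log2 difference of -2.99 and EXO of -2.28. EXLA2 had at least 0.04, with the light signal at 103.1 and the untreated one below the floor, so its size is not fixed by these arrays. With the floor lowered to the 10th percentile of all signals, 27.1, it was 1.48 and passed 2-fold. Again 2 of 3 genes were called lower and none was called higher. Calls covered 29.8% of probe sets on the lower side and 16.7% on the higher side, with a median of -0.22. At 4-fold, 9.78% of probe sets were lower, EXPA8 and EXO among them, and 7.55% of bright probe sets were at least 2-fold lower. EXPA8 was 108th and EXO 971st from the lowest. The untreated array of each genotype enters both its light comparison and the untreated genotype comparison, so these values are not separate observations.

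**Figure D2:**
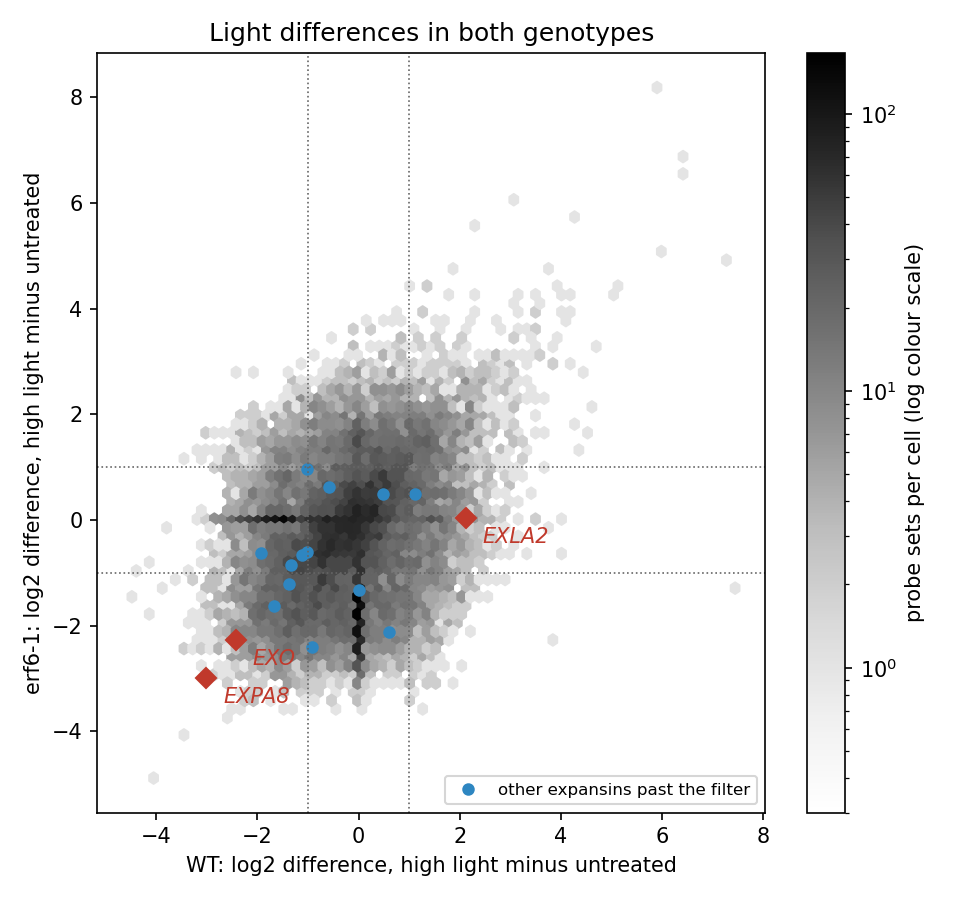
Log2 difference between the light and untreated arrays in the wild type (horizontal) and in erf6-1 (vertical) for the 17173 probe sets past the filter, as a density in grey, with 13 other expansins as blue points and EXPA8, EXO and EXLA2 as red diamonds; dotted lines mark 2-fold. EXPA8 at -3.01 and -2.99 and EXO at -2.42 and -2.28 lie at the lower left, and EXLA2 at 2.12 and 0.04 lies at the right; both EXLA2 values are bounds.

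The third comparison set untreated erf6-1 against the untreated wild type. EXPA8 was 1.99-fold lower in erf6-1, a log2 difference of -0.99 that fell just short of 2-fold as deposited. It was past 2-fold once the arrays were scaled alike, at -1.05 by quantiles and at -1.19 by medians. EXO was at -0.15. EXLA2 was below the floor on both arrays and has no fold. None of the 3 was called here, against 19.6% of probe sets called lower and 23.7% called higher.

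After light, EXPA8 was again lower in erf6-1, 1.97-fold, with a log2 difference of -0.97. Its genotype difference was thus of nearly the same size on both pairs of arrays. EXO was at -0.01, with signals of 353.8 and 355.8. EXLA2 was lower in erf6-1 by a log2 difference of -2.07, between signals that were both above the floor, and was the 49th lowest of 17173. It was the 1 gene of the 3 called lower, where 6.99% of probe sets were called lower and 6.61% higher. EXLA2 passed the filter only through its wild-type light array, at 433.3. Results were known when it was chosen, so nothing is read from its rank or call.

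The last comparison subtracted the light difference of the wild type from that of erf6-1. EXPA8 was at 0.02 and EXO at 0.14, so in log2 terms both genotypes gave nearly the same decrease in signal. EXLA2 was at -2.07. That value repeats the genotype difference after light, since the floor sets both untreated signals equal, and it rests on 2 arrays below the floor. Called lower in this measure were 1 of the 3 genes and 25.6% of probe sets, and called higher were none of the genes and 21.7%. Each such value carries the error of all 4 arrays.

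Scaling bore on sizes more than on directions. MAS5 scaling left unequal medians, and the median over all probe sets moved from -0.13 to 0.17 in the wild-type light comparison when medians were set equal, and from -0.22 to 0.33 in erf6-1. EXPA8 then had light differences of -2.58 and -2.35, and EXO of -2.00 and -1.65. EXLA2 had 2.36 in the wild type. The EXLA2 genotype difference after light stayed between -2.07 and -1.66 over the alternative treatments of the signals. The balance of all calls was less steady. In the wild type, higher values made up 37.4% of calls on the deposited scale, 50.6% under quantile normalisation and 60.7% once medians were equal. In erf6-1 these shares were 35.9%, 50.6% and 63.9%.

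**Figure D3:**
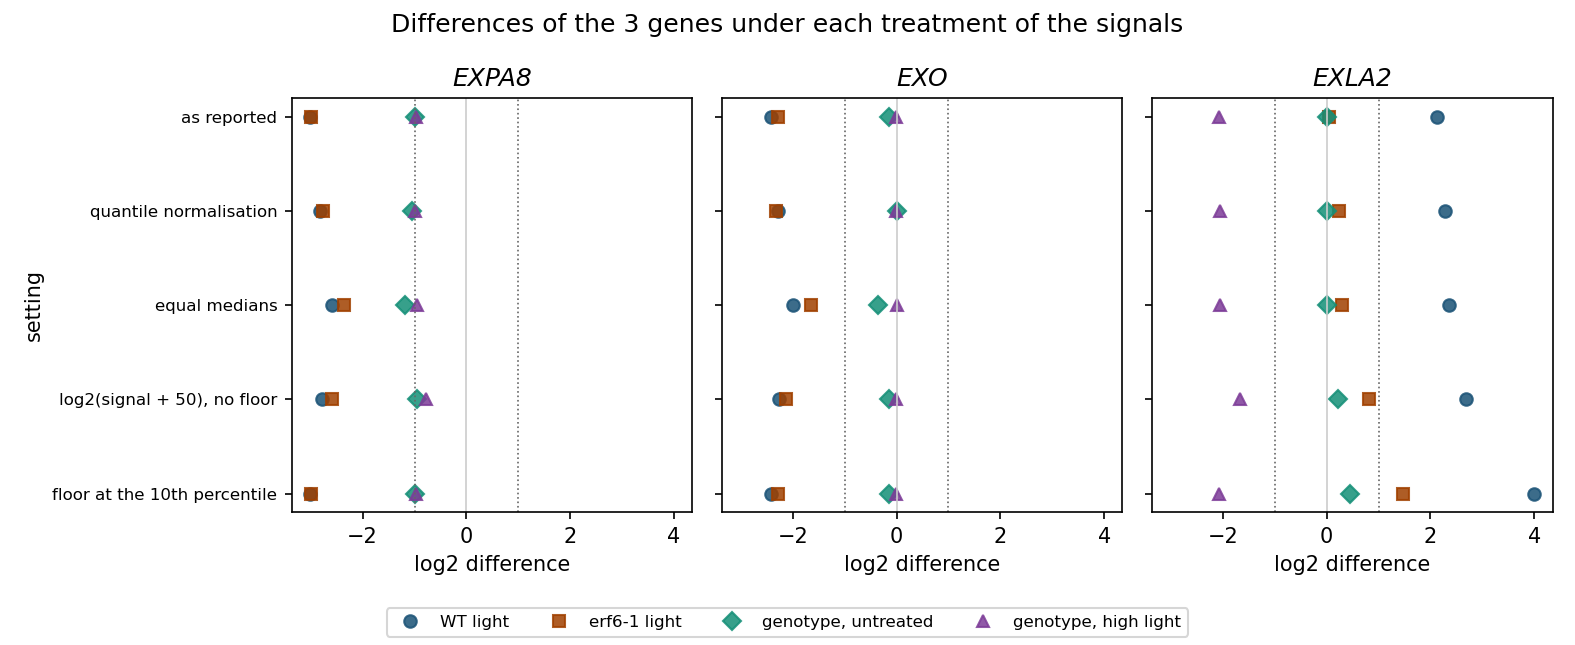
Log2 differences (horizontal) of EXPA8, EXO and EXLA2 in the 2 light and 2 genotype comparisons, under 5 treatments of the signals (rows); dotted lines mark 2-fold. The light differences of EXPA8 and EXO lie left of -1 in every row, and for EXLA2 the erf6-1 light value moves from 0.04 to 1.48 when the floor is lowered.

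The expansin superfamily holds 36 genes by symbol or synonym, of which 19 had a 1-gene probe set and 15 passed the filter. EXPA21, EXPA24, EXPA9 and AT4G30380 (EXLB2) did not pass it. In the wild type, 8 of 15 were called lower after light and 2 higher, with a median of -1.02, beside 23.9% and 14.3% and a median of -0.13 for all probe sets. Without EXPA8 and EXLA2 these counts were 7 and 1 of 13. None of the 15 was bright, and several of the 8 stood close to 2-fold. Under quantile normalisation 13 passed the filter and 4 were called lower, namely EXPA8, EXPA20, EXPB2 and EXPB3, beside 18.4% of all probe sets. When medians were equal 13 passed and 3 were called lower, namely EXPA8, EXPB2 and EXPB3, beside 15.4% of all probe sets. EXPB5 and EXLA3 did not pass the filter under either scaling. In erf6-1, 6 were called lower and none higher, with a median of -0.67, beside 29.8% and 16.7% and a median of -0.22 for all probe sets. Under those 2 scalings the erf6-1 median was -0.16 and -0.04, beside 0.00 and 0.33 for all probe sets. Called higher were 2 and 3 expansins, beside 22.0% and 30.4% of all probe sets. Called lower were 4 and 3, beside 21.5% and 17.2%.

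Among the expansins with a 1-gene probe set, EXPA8 had the lowest light difference in the wild type. In erf6-1 it was lowest among measured values, but EXLA3, a bound of -1.32 at the floor of 100, was at -3.21 with the lower floor, below EXPA8 at -2.99. EXPB3, a beta-expansin, had signals of 801.5 and 251.4 in the wild type without and with light and of 822.5 and 266.7 in erf6-1. Its log2 differences were -1.67 and -1.62, so like EXO it differed by light and hardly by genotype. EXPA20 was 2.58-fold lower in the wild type and at least 2.31-fold lower in erf6-1. EXPA8, EXPB3 and EXPA20 were the 3 expansins called lower in both genotypes. EXPA8 and EXPB3 remained so under quantile normalisation, and EXPA8 alone when medians were equal. EXPB2 joined the 3 with the lower floor, at -2.51 in erf6-1. It also did so with 50 added to each signal in place of a floor, at -1.51 in erf6-1.

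The other beta-expansins were lower in the wild type after light. EXPB2 was at least 3.81-fold lower, EXPB5 at least 2.52-fold and EXPB1 2.05-fold. With equal medians EXPB2 alone of these was called, but EXPB5 did not pass the filter there, so its size was not judged. In erf6-1 EXPB1 was 1.94-fold higher, from 115.9 to 225.4, and past 2-fold under both scalings, at 1.44 by quantiles and 1.43 by medians. EXPB5 had a log2 difference of -0.85 there. The alpha-expansin EXPA15 had signals of 937.0 and 431.3 in the wild type and of 462.7 and 290.0 in erf6-1, which is lower in erf6-1 and lower after light, as for EXPA8.

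Of EXPA7 and EXPA18, which are known from root hairs, EXPA18 went the other way from EXPA8 in the wild type, 1.52-fold higher after light. EXPA7 was lower there, as EXPA8 was, by 1.89-fold, which fell short of a call. EXPA18 had signals of 265.5 untreated and 403.5 after light in the wild type, and of 442.0 and 101.8 in erf6-1. EXPA7 had signals of 625.5 and 331.4 in the wild type, and of 851.8 and 159.8 in erf6-1. Both were called lower after light in erf6-1, at -2.12 and -2.41, and not in the wild type. PYK10, another root gene, had 28678.8 and 15881.3 in the wild type and 21338.2 and 18297.1 in erf6-1; the part of root material in these values was not tested.

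EXPA16 was the only other expansin called higher in the wild type after light. Its signals were 306.8 and 662.3 in the wild type and 437.6 and 615.8 in erf6-1. EXPA4 had 438.3 and 292.2 in the wild type, and 54.4 and 154.4 in erf6-1. EXLB1 was 2.02-fold lower in the wild type and 1.51-fold lower in erf6-1.

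The paralogues of EXLA2 did not share its pattern. EXLA1 had signals of 299.3 and 420.9 in the wild type and of 286.1 and 401.6 in erf6-1, which is 1.41-fold and 1.40-fold higher after light. In erf6-1 the EXLA1 difference reached 2-fold under both scalings, at log2 values of 1.0 by quantiles and 1.12 by medians, and in the wild type it did not. EXLA3, the neighbour of EXLA1 on the chromosome, was above the floor on 1 array, with 250.3 in untreated erf6-1. Related expansins can share sequence, and the probe sequences were not used here, so cross-hybridisation between paralogues was not tested. A probe set shared by EXPA22 and EXP26 had signals of 222.5 and 12.3 in the wild type and of 286.0 and 20.3 in erf6-1. Both light signals were below even the lower floor of 27.1, so its decreases are bounds and were not ranked beside EXPA8. A probe set shared by EXPA23 and EXPA25 had 201.4 and 22.5, and 97.0 and 22.6; it did not pass the filter.

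**Figure D4:**
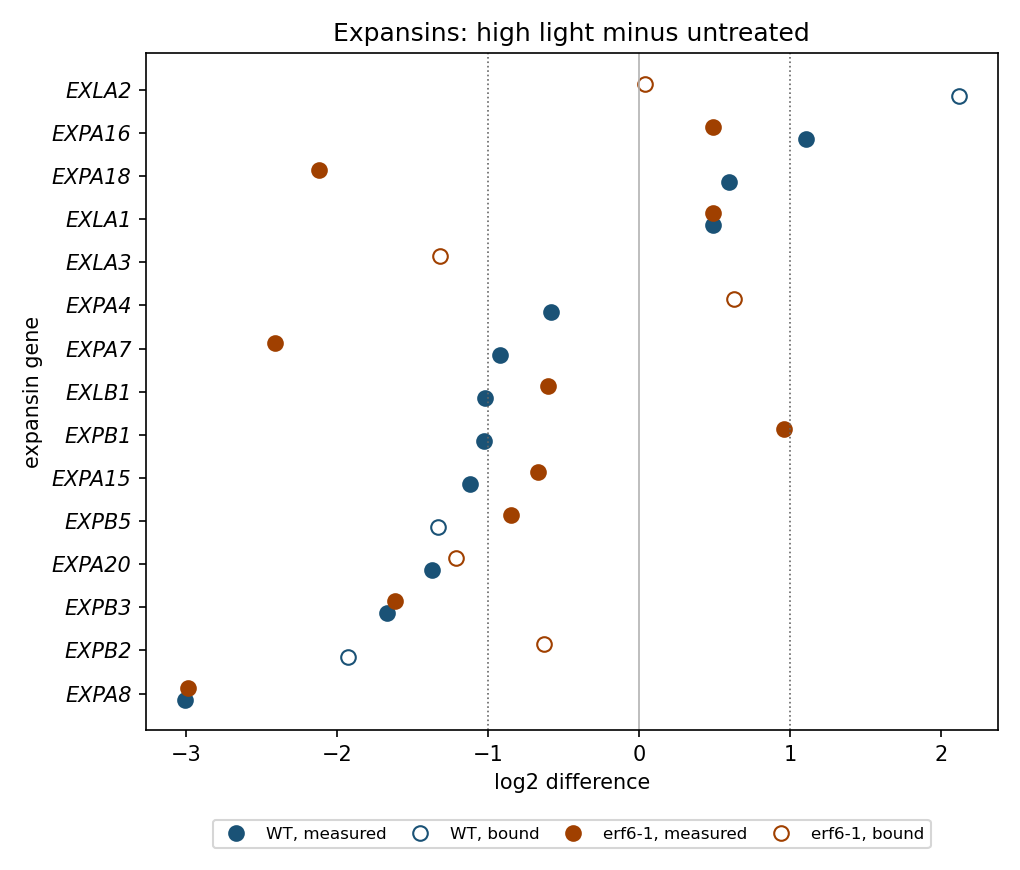
Log2 difference between light and untreated arrays (horizontal) for the 15 expansin genes past the filter, ordered by the wild-type value, in the wild type (blue) and erf6-1 (brown); open circles are bounds, a gene below the floor on both arrays has no point, and dotted lines mark 2-fold. EXPA8 is at -3.01 and -2.99, the lowest filled points, EXLA2 is highest in the wild type at 2.12, and EXPA18 and EXPB1 have opposite signs in the genotypes.

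Between the genotypes, 4 of the 15 expansins were called lower in untreated erf6-1 and 1, EXLA3, higher, beside 19.6% and 23.7% of all probe sets. EXLA3 passed the filter through that 1 array, at 250.3. Under either scaling it did not pass the filter and so was not called. The 4 were EXPB1, 7.31-fold lower, EXPA4, at least 4.38-fold, EXPB2, 2.47-fold, and EXPA15, 2.03-fold. After light 3 were called lower in erf6-1 and none higher, with a median of -0.43, beside 6.99% and 6.61% and a median of 0.00 for all probe sets. They were EXLA2, EXPA18, with a log2 difference of -1.99, and EXPA7, with -1.05. Without EXPA8 and EXLA2, 2 of 13 were called lower and the median was -0.11. The 7 alpha-expansins past the filter ranged from -1.99 to -0.11 and the 4 beta-expansins from -0.88 to 0.51. Those ranges hold values set by the floor. With the lower floor EXPA20 was at -2.19, EXPB2 at -1.49 and EXPB5 at 2.08. EXPA24, which did not pass the filter, had 15.2 in the wild type and 202.2 in erf6-1 after light and was at least 1.02 higher. With the floor at the 10th percentile 5 expansins were called lower and 1 higher.

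**Figure D5:**
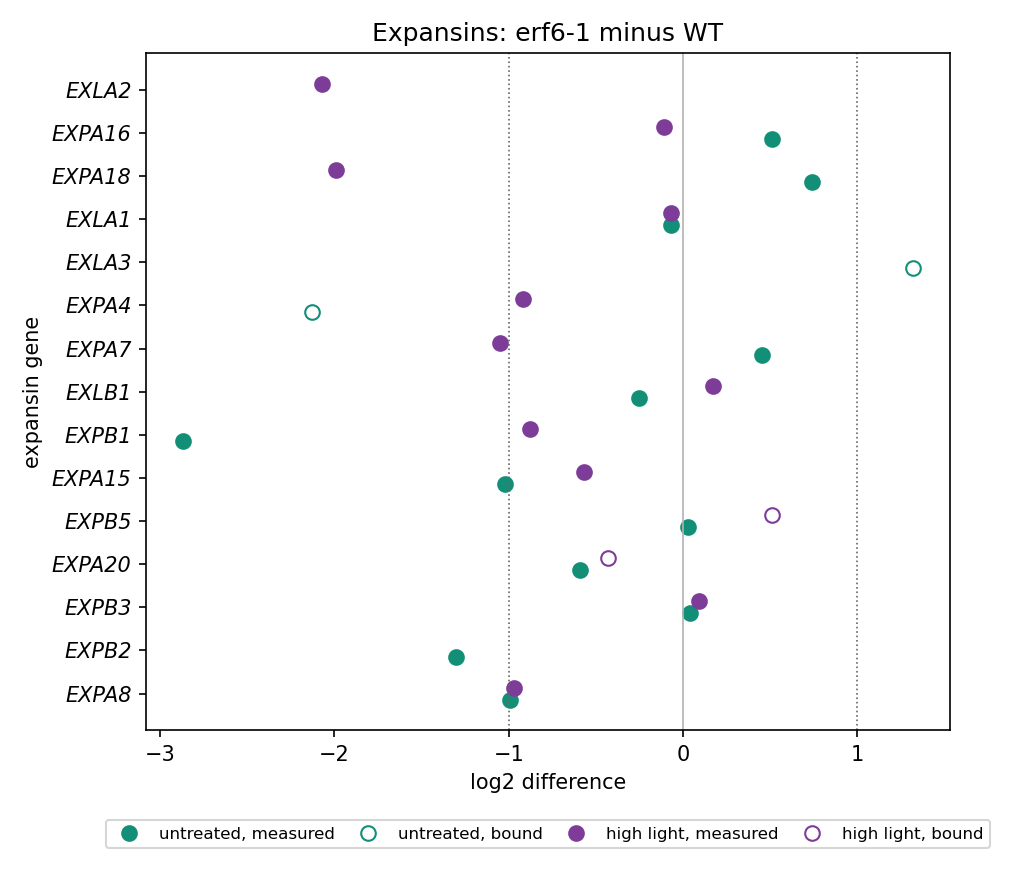
Log2 difference between erf6-1 and the wild type (horizontal) for the 15 expansin genes past the filter, in the same order as the plot of their light differences, for the untreated arrays (green) and the light arrays (purple); open circles are bounds and a gene below the floor on both arrays has no point. EXPA8 shows -0.99 and -0.97, and the light value of EXLA2 is -2.07.

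Other genes of wall synthesis and growth were followed through 10 further lists beside the expansins and EXO. Their counts after light stand against 23.9% of all probe sets called lower and 14.3% higher in the wild type, and 29.8% and 16.7% in erf6-1, and nothing particular to a list is read from them. With equal medians these shares were 15.4% and 23.9% in the wild type and 17.2% and 30.4% in erf6-1. EXO was the only one of 8 EXORDIUM family genes with a probe set of its own. Of 33 xyloglucan endotransglucosylase/hydrolases (XTH), enzymes that cut and rejoin xyloglucan, 7 passed the filter; 2 were called lower and 1 higher in the wild type after light, with a median of -0.41 that turned to 0.01 with equal medians. In erf6-1, 1 was lower and none higher, with a median of -0.15, and with equal medians 0 were lower and 2 higher, with a median of 0.26. XTH16 had signals of 574.9 and 194.5 in the wild type and of 633.3 and 265.5 in erf6-1, a pattern like that of EXO. XTH18 was 1.53-fold and 1.75-fold lower, and XTH19 1.43-fold and 1.68-fold higher.

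Of 57 cellulose synthases, synthase-like genes and their partners, 8 passed the filter. They were COB and synthase-like genes (CSLA, CSLC and CSLD), and no cellulose synthase (CESA) gene had a 1-gene probe set. In the wild type 5 were called lower after light and 1 higher, with a median of -1.11, and in erf6-1 3 were lower and none higher, with a median of -0.47. With equal medians the lower calls were 3 and 0. CSLC6, of the family that makes the xyloglucan backbone, had signals of 556.2 and 270.9 in the wild type and of 512.8 and 272.2 in erf6-1. CSLD2, a glucan synthase gene of root hairs, was 1.45-fold lower in the wild type and 2.28-fold lower in erf6-1. CSLC5 had 723.8 and 214.3 in the wild type and 206.0 and 305.9 in erf6-1.

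Hormone and growth regulators were thinly covered. Of 3 pectin genes past the filter, 1 was called lower in each genotype after light, not the same gene, and none was called higher. The polygalacturonase ADPG1 was 1.14-fold lower in the wild type. All 3 gibberellin receptor genes GID1A, GID1B and GID1C passed the filter. GID1B had 346.5 and 261.1 in the wild type and 486.8 and 121.3 in erf6-1. GID1C was 2.50-fold lower in the wild type and at least 3.30-fold lower in erf6-1, while GID1A, at 90.6 and 269.8 in the wild type, was at least 2.70-fold higher with light, and at 173.4 and 75.2 in erf6-1 it was at least 1.73-fold lower. Of 37 brassinosteroid genes only BIM1, a partner of the brassinosteroid transcription factors, passed the filter, with 102.1 and 383.8 in the wild type and 459.3 and 416.2 in erf6-1. HAT2, a homeodomain gene of auxin and shade responses, had 750.5 and 498.2, and 315.1 and 398.9. For 4 of 12 lists (wall structural proteins, SAUR genes, aquaporins and cell cycle genes) no gene had a named probe set here.

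Likeness of pattern was measured as the Euclidean distance between log2 profiles over the 4 arrays, each centred on its own mean, among the 5385 named candidates whose signal passed the floor on every array. EXPA8 and EXO lay 1.11 apart, and EXO was the 15th nearest to EXPA8. EXLA2 lay 4.21 from EXPA8 and 3.73 from EXO.

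Nearest to EXPA8 was psbM, a plastid-encoded subunit of photosystem II, at a distance of 0.45, followed by AT4G16980 at 0.52, AT5G01080 at 0.64, AT1G74940 at 0.88 and psbI, a second plastid-encoded photosystem II gene, at 0.90. AT4G16980 had 2624.9 and 305.9 in the wild type, beside 2092.3 and 260.6 for EXPA8. Nearest to EXO was AT4G12980, at 0.06, with signals of 997.1 and 184.5 in the wild type and 933.0 in untreated erf6-1. AT3G07400, AT3G57720, AT3G46490 and BHLH101, a transcription factor gene of the iron response, followed at 0.18 to 0.30. These genes were 4-fold or more lower after light in both genotypes and close between the genotypes.

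Nearest to EXLA2, whose profile holds 2 values at the floor, was AT3G09700, at 0.39, with 154.4 and 626.1 in the wild type and 196.9 in untreated erf6-1. AT3G13340 at 0.64, AT3G57010 and AT4G15390 at 0.65 and AT4G17960 at 0.70 came next. All 5 were higher in the wild type after light, by log2 differences of 1.31 to 2.85, and lower in erf6-1 than in the wild type after light, by -2.13 to -1.17. Candidates had to pass the floor on every array, so no gene below it when untreated, as EXLA2 was, could be listed. With 4 arrays a distance describes these arrays only, and says nothing of shared control.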

How the data were processed

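The authors deposited 1 table of array intensities, MAS5 signals on a linear scale per the submitters' processing notes, with no version or scaling target given in the sources used here. Groups came from the sample titles. Probe sets were named through the supplied probe table and the RefSeq gene table (assembly TAIR10.1): of 22746, 14016 were listed and 13436 matched 1 current gene. Signals under 100.0, the 30th percentile over the 4 arrays, were set to it before log2 was taken. A probe set counted if its highest array reached 248.6. A difference of 2-fold was called; a fold with 1 array below 100.0 is a bound, and with both below it entered medians as 0. With 1 array a group there is no test. Genes named from lists were all expansins and EXORDIUM genes, and up to 3 per other list, above the floor on all arrays, with the largest mean light difference; GID1A, GID1C, LHCB4.1 and PYK10 were named in addition after their values were seen. The 3 genes and all lists were chosen with earlier results of these data known. PRP39, a splicing factor matched by its symbol, was left out of the wall proteins. A planned promoter motif search was not run, since no promoter sequence was used here. The calculation was tested on simulated data. Python 3.11.15, numpy 2.4.6, pandas 2.3.3 and matplotlib 3.10.9 were used.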

Additional observations from a re-analysis of the deposited data

Results flagged for a closer look

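The light differences of 8 of 45 named genes had opposite signs in the genotypes and were at least 2-fold apart, with 1 array a group; these differences were not tested. As the light difference in erf6-1 minus that in the wild type, EXPA18 was at -2.72, BIM1 at -2.05 and GID1A, below the floor on 1 array of each genotype, at -2.23. AT3G09700 was at -2.48 and AT4G15390 at -1.52; both were named for a profile like that of EXLA2. CSLC5 was at 2.33, EXPB1 at 1.99 and EXPA4, below the floor in untreated erf6-1, at 1.21. EXPA8, EXO and EXLA2 were not among them.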

How the results depend on the processing

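Across the 5 alternatives that bear on a gene's value or call (dropping the filter alters counts over lists and probe sets only), the light differences of EXPA8 and EXO and the wild-type light difference and genotype difference after light of EXLA2 kept their direction and their side of the threshold. Of 75 values for the 3 genes, 72 kept their side of the threshold. The 3 others passed 2-fold only under an alternative: EXPA8 between the untreated arrays under both scalings, where 1 of the 3 genes was called lower, and EXLA2 after light in erf6-1 with the lower floor, where 1 was called higher. Small differences could change sign. Under quantile normalisation EXO moved from -0.15 to 0.01 between the untreated arrays, and from 0.14 to -0.03 for the difference of responses. Expansin counts depended on scaling and on the size called. Lower calls in the wild type were 8 of 15 genes past the filter on the deposited scale, and 1 at 4-fold. They were 4 of 13 under quantile normalisation and 3 of 13 when medians were equal. In erf6-1 they were 6 on the deposited scale, 4 and 3 under those scalings, and 3 at 4-fold. Higher calls in the wild type were 2, 3 with equal medians, and 1 with the pseudocount of 50 or at 4-fold. In erf6-1 they were 0, but 2 after quantile normalisation or with the lower floor and 3 with equal medians. With equal medians the XTH median turned from -0.41 to 0.01 in the wild type and from -0.15 to 0.26 in erf6-1. Of all probe sets, equal medians called 15.4% lower and 23.9% higher in the wild type and 17.2% and 30.4% in erf6-1. Quantile normalisation called 18.4% lower and 18.8% higher in the wild type and 21.5% and 22.0% in erf6-1. With the lower floor 13.0% were lower and 12.2% higher between the light arrays. At 4-fold, lower and higher calls were 5.04% and 3.15% in the wild type, 9.78% and 4.28% in erf6-1, 5.74% and 8.12% between untreated arrays, 0.361% and 0.274% between light arrays, and 9.85% and 7.34% for the difference of responses. The causes were not tested. No paired analysis was possible because each group had 1 array.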
